A study of Mus musculus with 22 samples.

Results

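The genes described here carry fatty acids into heart muscle cells and burn them in the mitochondria. The group was set by name, as 36 genes, with earlier results of these data known, so its counts and medians describe it and do not test it. The values were read from the array probes that the platform annotation assigns to these genes. Of the 36 genes, 35 were among the 19057 genes analysed here, and Acsl1 was not analysed here. Where a gene had several probes, which was so for 22 members, the brightest one over all arrays stood for it. RNA came from C57BL/6 mouse hearts in which Ronin (Thap11), a DNA-binding transcriptional regulator, had been deleted by Cre recombinase. Illumina MouseWG-6 v2.0 arrays gave each transcript as a probe intensity, over 22 arrays in 10 groups. Nkx2.5::Cre, active in cardiac progenitors, was used at E9.5 (2 control and 2 knockout arrays, each a pool of 10 hearts) and at E11.5 (3 and 3). αMHC::Cre, active somewhat later and in cardiac myocytes, was used at E11.5, P0 and 6 weeks (2 and 2 each). Every control carried Cre with 1 floxed Ronin allele (RoninloxP/+), so the controls were heterozygous for the deletion, and the knockouts were RoninloxP/loxP. For the αMHC knockouts the genotype field of the sample records names the other driver, and the titles, which name MHC, were followed. Apart from the E9.5 pools, the records do not say how many hearts went into an array or that replicates were separate animals, so p values measure the spread between arrays, which may be partly technical.

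The adult heart draws most of its energy from long-chain fatty acids. Lipoprotein lipase frees them from circulating triglycerides, carriers bring them in, acyl-CoA synthetases activate them, and the carnitine shuttle moves the acyl chain into the mitochondrial matrix. There the beta-oxidation cycle shortens the chain by dehydrogenation, hydration, a second dehydrogenation and thiolysis, and the electrons of the first step pass through electron transfer flavoprotein and its dehydrogenase, Etfdh, to ubiquinone. The fetal heart relies more on glucose and lactate, and the machinery for fatty acids matures around and after birth.

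Thap11 was lower in knockouts than in controls in all 5 comparisons, with a mean log2 difference of -0.74 (exact permutation of the labels within comparisons, two-sided p = 7.7e-05). At 6 weeks it was at 20.0% of the control mean in knockout replicate 1 and at 53.4% in knockout replicate 2. Xist, which marks female hearts, was low in replicate 1 and high in replicate 2 of both 6-week groups (57.5 and 556 in controls, 58.5 and 689 in knockouts). In the αMHC hearts at E11.5 the controls read 1888 and 1989 against 49.9 and 54.9 for the knockouts, so there sex and genotype cannot be told apart. In Nkx2.5 hearts at E11.5 it was high in controls 1 and 2 and knockout 1 and low in control 3 and knockouts 2 and 3. All 11 transcripts measured that define cardiac myocytes lay above the median of all probes at every age, and their summed intensity was between 236118 and 243071 in the 6-week controls and between 248580 and 263174 in the 6-week knockouts. At that age the fat cell genes Plin1, Cidec, Retn, Car3, Ucp1 and Elovl3 lay below the median of all probes. Adipoq (109.8 in controls and 74.3 in knockouts, -0.51), Lep (0.16) and Fabp4 (-0.11) lay above it and did not pass the test. The brown fat genes Cidea (1831 in controls and 3178 in knockouts, 0.74) and Dio2 (77.6 and 124, 0.60) also lay above it. For both, the knockouts were above both controls (19.6% of all genes), and neither passed the test. The summed level of 7 adipocyte markers overlapped between the groups (490.5 to 636 in controls, 475 to 524 in knockouts).

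In the 6-week αMHC knockouts most steps of fatty acid oxidation had lower transcript levels. Etfdh and Acaa2, a thiolase that acts at the last step of the cycle, fell furthest and alone passed the test. A gene was called when its adjusted p was under 0.05 (limma, Benjamini-Hochberg over all genes tested in the comparison). Of the 34 members bright enough to be tested, 2 fell and 0 rose, where 1.05% of all 11708 genes tested fell and 0.717% rose. The fitted difference was below 0 for 31 of the 34 (47% of all genes), and 24 lay below -0.3 (12.5% of all genes). Both knockout arrays were below both control arrays for 21 members (17.9% of all genes) and above them for 0 (19.6% of all genes). The median difference of the members was -0.39 on the log2 scale against 0.02 over all genes. At an unadjusted p under 0.05, 11 members were lower and 0 higher, where 5.06% of all genes were lower and 5.52% higher. Since the members were chosen with results of these data known, the shares set beside all genes are no test of the group. RNA from whole hearts was measured, so fewer cells of a type and less RNA per cell cannot be told apart.

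**Figure D1:**
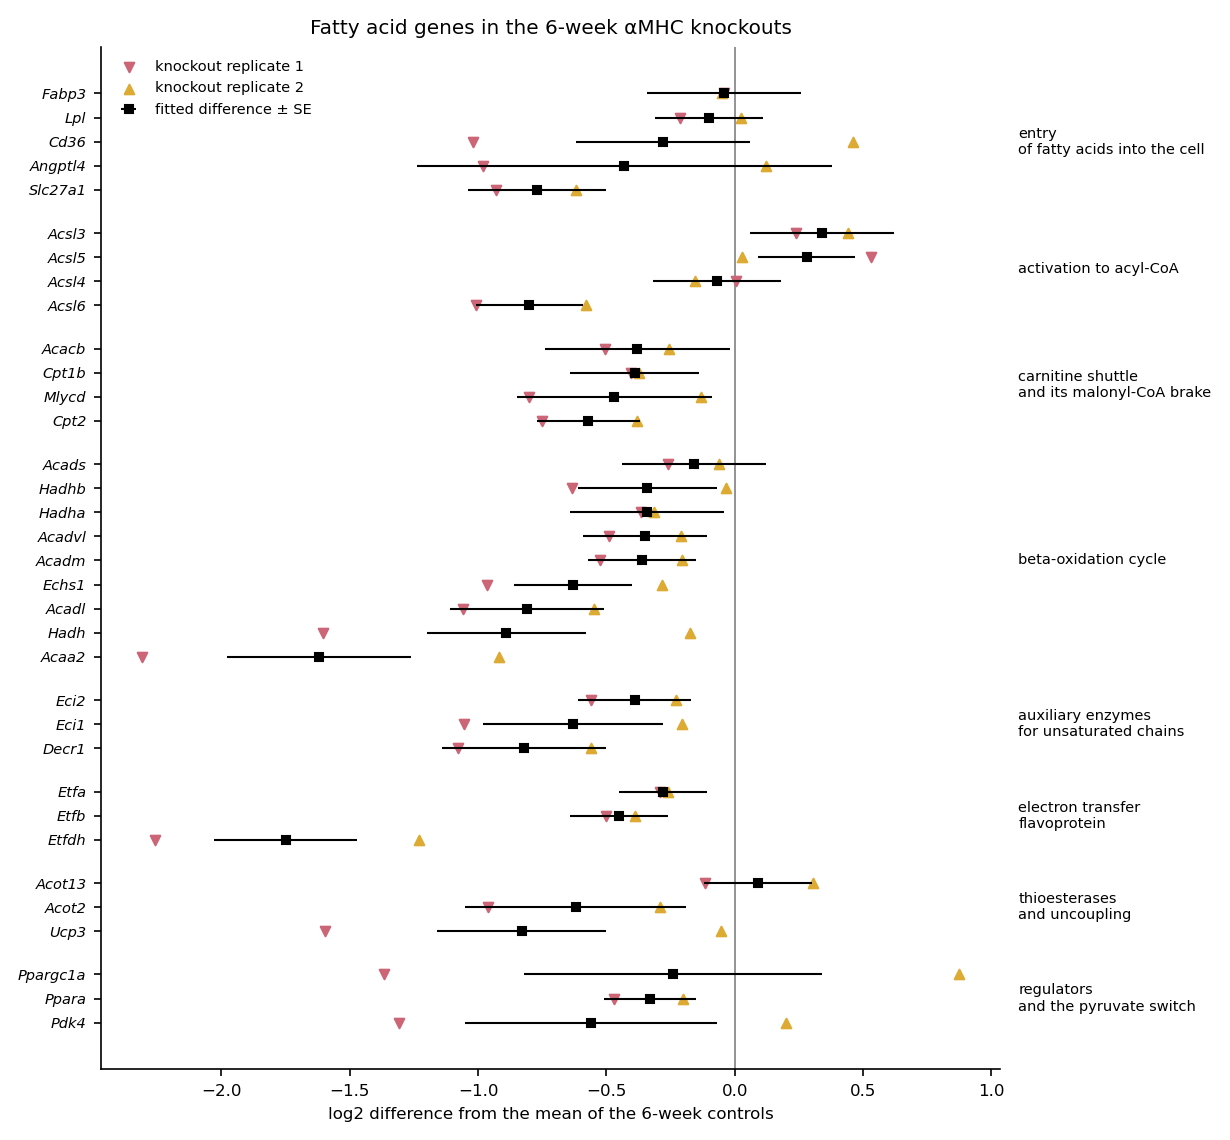
The log2 difference of each of the 34 tested members from the mean of the 6-week controls (horizontal axis), grouped by role, with triangles for the 2 knockout arrays and squares with bars for the fitted difference ± SE. Etfdh (-1.75) and Acaa2 (-1.62) stand furthest to the left, and in most rows knockout replicate 1 lies left of knockout replicate 2.

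Etfdh codes for electron transfer flavoprotein dehydrogenase, which hands the electrons from the acyl-CoA dehydrogenases to ubiquinone. At 6 weeks the control arrays read 9890 and 8508, and the knockout arrays 1912 and 3911. Both knockouts lay far below both controls, with replicate 1 the lower, and the mean fell from 9199 ± 977 to 2911 ± 1414 (SD, n = 2 arrays each). The fitted difference was -1.75 (SE 0.28, 95% interval -2.33 to -1.17, adjusted p = 0.0016). Its 3 other probes, which read 132 to 304 in controls, gave -1.25, -0.95 and -0.35, and the mean of all its probes fell by 1.08 (adjusted p = 7.9e-04). The call rested partly on control replicate 1, without which the difference was -1.64 (adjusted p = 0.1), while without knockout replicate 1 it was -1.23 (adjusted p = 0.031) and without knockout replicate 2 it was -2.26 (adjusted p = 1.6e-05).

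The promoter of Etfdh is shown because it was the one promoter searched among the members that held a sequence known to be bound by Ronin. RefSeq (GRCm38.p6) places Etfdh on the minus strand of chromosome 3, at chr3:79603788-79628767. Promoter windows of 250 bases before to 50 after the start were at hand for 30 of the 36 members (35 windows). The promoter sequence known for Ronin, with its 2 ambiguous positions left free, and the core of the motif found at Ronin sites in heart chromatin were searched on both strands, and the patterns can overlap. Etfdh alone among the members had a match, to both patterns, on the strand opposite to the gene and sharing 9 bases, 177 to 164 bases before the start. The first pattern was found in 1.64% and the second in 4.16% of all 32851 windows, so 1 match among 35 member windows is close to the share over all windows. The full forms with their ambiguity letters, which the Etfdh window also matches, were in 0.91% and 2.27%. Whether Ronin binds at Etfdh was not examined here. The window at chr3:79628718-79629017, read along the gene with the 14 matched bases in capitals, is
Etfdh: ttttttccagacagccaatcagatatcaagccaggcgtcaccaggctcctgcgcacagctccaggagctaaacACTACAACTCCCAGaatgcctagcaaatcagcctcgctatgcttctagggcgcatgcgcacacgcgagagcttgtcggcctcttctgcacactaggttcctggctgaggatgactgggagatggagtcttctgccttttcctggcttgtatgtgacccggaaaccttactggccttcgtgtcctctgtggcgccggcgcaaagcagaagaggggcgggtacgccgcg
The direct repeat bound by PPAR with the retinoid X receptor was in 0 member windows and in 0.0396% of all windows. The extended site of estrogen-related receptors, TCAAGGTCA, was in an Acsl6 window and in 0.423% of all windows. Cpt1b, Decr1, Acaa2, Acot13, Lpl and Angptl4 were not searched.

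Both subunits of the flavoprotein that delivers electrons to Etfdh were below 0 as well. Etfa, the alpha subunit of the electron carrier itself, read 35818 and 34466 on the control arrays against 28740 and 29336 on the knockout arrays. Its groups did not overlap, and the difference was -0.28 (SE 0.17, adjusted p = 0.71). Etfb, the beta subunit, was at -0.45 (SE 0.19, adjusted p = 0.37). Neither subunit passed the test.

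**Figure D2:**
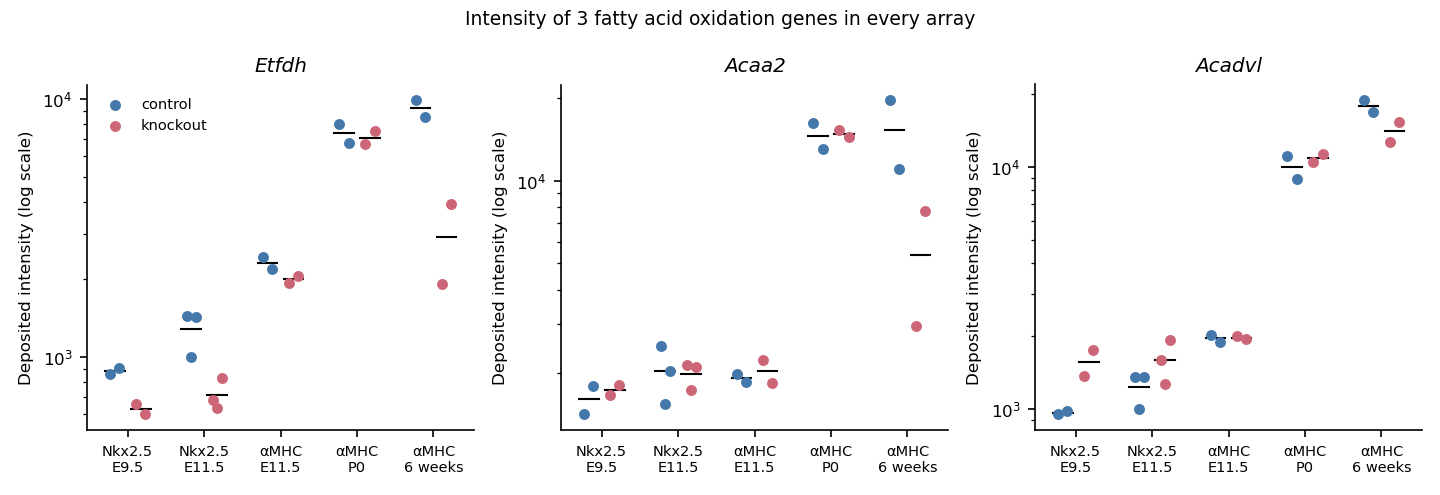
Deposited intensity (log scale) of Etfdh, Acaa2 and Acadvl in every array, with controls in blue, knockouts in red and a line at each group's mean. Etfdh separates the genotypes at E9.5, at E11.5 with both drivers and at 6 weeks, Acaa2 at 6 weeks, and Acadvl at E9.5 with knockouts above controls and at 6 weeks with knockouts below.

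Within the beta-oxidation cycle all 9 members were below 0 at 6 weeks, 8 of them with knockouts below controls in every array, and 1 passed the test. Acaa2, mitochondrial 3-ketoacyl-CoA thiolase, read 19647 and 10986 on the control arrays against 2959 and 7729 on the knockout arrays. The groups did not overlap, but the spread within each was wide, 15316 ± 6124 against 5344 ± 3373 (SD, n = 2 each). The difference was -1.62 (SE 0.36, 95% interval -2.38 to -0.86, adjusted p = 0.025), and its 3 other probes gave -1.59, -1.53 and -1.03. The call was lost without control replicate 1 (-1.20, adjusted p = 0.81), without knockout replicate 1 (-0.93, adjusted p = 0.5) and with the mean of the probes (-1.44, adjusted p = 0.076). With the 6-week arrays fitted alone, neither Acaa2 (adjusted p = 0.42) nor Etfdh (adjusted p = 0.26) passed. RefSeq places Acaa2 at chr18:74779212-74806207.

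Of the acyl-CoA dehydrogenases, which start each turn of the cycle on chains of different length, Acadm, the medium-chain enzyme, read 36467 and 38610 on the control arrays against 26110 and 32566 on the knockout arrays. Its knockouts were below its controls, and the difference was -0.36 (SE 0.21, adjusted p = 0.65). Acadl, the long-chain enzyme, was at -0.81 (SE 0.30, adjusted p = 0.26), with its other probes at -0.29 and -0.08. The very long-chain enzyme Acadvl, at 18858 and 16897 for controls and 12692 and 15348 for knockouts, differed by -0.35 without overlap (SE 0.24, adjusted p = 0.76). The short-chain enzyme Acads was at -0.16, and its second probe gave -0.52. Later in the cycle, the 3-hydroxyacyl-CoA dehydrogenase Hadh was at -0.89 (SE 0.31, adjusted p = 0.19), mostly through its first knockout array (192, against 518 in the second and 631 and 545 in controls), and its second probe gave -0.42. The enoyl-CoA hydratase Echs1 was at -0.63 (SE 0.23, adjusted p = 0.24). Both subunits of the trifunctional protein, Hadha and Hadhb, were at -0.34. The Hadha probe was dim (means of 225 in controls and 174 in knockouts, against 22468 and 18186 for Hadhb). Between the arrays numbered 1 they were at -0.66 and -0.69, and between those numbered 2 at -0.03 and 0.02.

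The 3 auxiliary enzymes that prepare unsaturated chains for the cycle were all below 0, and none passed the test. Decr1, 2,4-dienoyl-CoA reductase, read 2736 and 1986 on the control arrays against 1103 and 1582 on the knockout arrays. The groups did not overlap, with a difference of -0.82 (SE 0.32, adjusted p = 0.29). Eci1, an enoyl-CoA isomerase, read 15298 and 13783 on the control arrays against 6992 and 12566 on the knockout arrays. Its second knockout came close to the lower control, and the difference was -0.63 (SE 0.35, adjusted p = 0.59).

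At the carnitine shuttle, Cpt2, the inner membrane palmitoyltransferase, had the largest difference. It read 13787 and 10760 on the control arrays against 7211 and 9348 on the knockout arrays, which did not overlap (-0.57, SE 0.20, adjusted p = 0.22). Cpt1b, the muscle form of the outer membrane enzyme and the regulated gate of the pathway, was at -0.39 (SE 0.25), and its second probe gave -0.09. The enzymes that make and break malonyl-CoA, the inhibitor of that gate, were both below 0, Acacb at -0.38 and Mlycd at -0.47. All 4 tested members of this step had knockouts below controls in every array. Cpt1a, the liver form, stayed below the median of all probes in every comparison and was not tested.

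The 5 genes for the entry of fatty acids were all below 0, none passed the test, and in 4 of them the arrays overlapped. Fabp3, the cytosolic fatty acid binding protein of heart, read 56927 and 48452 on the control arrays against 51240 and 50609 on the knockout arrays, so the groups overlapped (-0.04, SE 0.30, 95% interval -0.66 to 0.58). Lpl, lipoprotein lipase, was at -0.10 (95% interval -0.54 to 0.35). Neither interval excludes a moderate change of either sign. Slc27a1, a fatty acid transport protein, read 1150 and 986 on the control arrays against 560.5 and 692 on the knockout arrays. Its knockouts were below both controls, with a difference of -0.77 (SE 0.27, adjusted p = 0.19). Cd36, the membrane translocase, overlapped (127 and 292 against 95.2 and 264), and so did Angptl4, a secreted inhibitor of lipoprotein lipase.

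Of the 4 acyl-CoA synthetases tested, 2 were below and 2 above 0 at 6 weeks, and none passed the test. Acsl6 read 145 and 214 on the control arrays against 87.4 and 117 on the knockout arrays, without overlap (-0.80, SE 0.21, adjusted p = 0.057). Its second probe gave -1.83 (276 against 76.6, means), and another, below the median of all probes, gave 0.04. With the replicate number as a block, or with the mean of its probes, Acsl6 passed (adjusted p = 0.0096 and 0.0013), and over all its alternatives the adjusted p lay between 0.0013 and 0.9. Acsl5 read 975 and 874 on the control arrays against 1331 and 945 on the knockout arrays, which overlapped (0.28, SE 0.19, adjusted p = 0.74). Acsl3 was at 0.34 (SE 0.28) and Acsl4 at -0.07, also with overlap.

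Among the thioesterases, which release free fatty acid from acyl-CoA, Acot13 read 14768 and 17810 on the control arrays against 14921 and 20073 on the knockout arrays, and overlapped (0.09, SE 0.21). Acot2 overlapped too, at -0.62 (SE 0.43, adjusted p = 0.75), with its other probes at -0.19 and 0.05. Ucp3, an uncoupling protein of muscle mitochondria, read 289.9 and 254 on the control arrays against 89.7 and 261 on the knockout arrays. Only its first knockout was low, and the difference was -0.83 (SE 0.33, adjusted p = 0.31). Its second probe, the brighter one at this age, gave -1.19 (418 in controls against 227 in knockouts, means). Pdk4, the kinase that turns pyruvate dehydrogenase off, read 5284 and 10760 on the control arrays against 3039 and 8649 on the knockout arrays. Here the replicates of a genotype differed more than the genotypes (-0.56, SE 0.49, adjusted p = 0.88). Ppargc1a, the coactivator of mitochondrial genes, showed the same spread, at 916 and 2567 for controls against 596 and 2824 for knockouts, and in both genes the higher array of each genotype was the one with high Xist. Ppara, the nuclear receptor of fatty acids, was at -0.33 (SE 0.18, adjusted p = 0.57).

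The 6-week knockout arrays differed from each other in this gene group. Relative to the control mean, the median member was at -0.70 in knockout replicate 1 (31 of 34 below) and at -0.21 in knockout replicate 2 (26 of 34 below), and the controls were at 0.04 and -0.04. Replicate 1 was also the array with the lower Thap11. Without knockout replicate 2 the count of called members was 7 in place of 2, without knockout replicate 1 it was 1 (Etfdh), and without control replicate 1 it was 0. Because same-numbered arrays were alike in Xist, they were also compared with each other. The median member was at -0.64 between the arrays numbered 1 (30 of 34 below 0) and at -0.22 between those numbered 2 (25 of 34 below 0), against 0.02 and 0.00 for all genes. Etfdh was at -2.37 and -1.12 and Acaa2 at -2.73 and -0.51 in these 2 contrasts. With the number as a block, 4 members were called (Acsl6, Echs1, Acaa2 and Etfdh). Other transcripts moved at this age too. Acta2 rose from 14956 to 47291 (1.62, adjusted p = 1.6e-04) and Acta1 from 15545 to 40395 (1.55, adjusted p = 0.022), whereas 0 of 11 cardiac myocyte markers passed the test, with a median of 0.04 and a range from -0.87 (Myl7) to 1.89 (Myh7, 354 to 1976, adjusted p = 0.11). The summed levels of 4 smooth muscle markers (13867 to 16675 in controls, 35925 to 59446 in knockouts), 8 skeletal muscle markers (31123 to 47363, 60375 to 65303) and 4 brown adipocyte markers (1745 to 2326, 2429 to 4420) were higher in both knockouts, with 1, 1 and 0 genes called. One gene carried most of the rise in each sum, Acta2, Acta1 and Cidea (1831 to 3178), and other skeletal muscle genes were at -1.32 (Pvalb), -0.62 (Mylpf) and -0.07 (Ckm). Acta2 and Acta1 were also bright in the control hearts at E9.5 (50583 and 18655), so the sums they carry do not by themselves point to smooth or skeletal muscle cells. All 8 fibroblast and matrix markers tested were above 0 (median 0.26, from 0.12 to 1.40), and 0 were called. Their summed level overlapped between the groups (16375 to 20577 in controls, 19120 to 24424 in knockouts). The part of such shifts in the levels of the fatty acid genes was not tested.

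At the earlier ages few of the fatty acid genes passed the test. In Nkx2.5 hearts at E9.5, 31 members were tested, of which 1 rose (0.179% of all genes) and 0 fell (0.316%), and the median was 0.00. At an unadjusted p under 0.05, 1 was lower (2.58% of all genes) and 1 higher (2.17%). The knockouts were all below the controls for 1 member (13.8% of all genes) and all above for 5 (15.9%), while 14 members were below 0 (47.8%) and 1 was below -0.3 (2.34%). Acadvl, at chr11:70010183-70015428, read 953 and 979 on the control arrays against 1373 and 1750 on the knockout arrays. Both knockouts were above both controls, and the mean rose from 966 to 1562 (0.68, SE 0.13, adjusted p = 0.02), with its second probe at 0.56. That call did not hold without control replicate 1 (0.66, adjusted p = 0.31), control replicate 2 (0.70, adjusted p = 0.32) or knockout replicate 2 (0.51, adjusted p = 0.21), nor with equal array weights (adjusted p = 0.59). Etfdh read 857 and 909 on the control arrays against 658 and 600.2 on the knockout arrays, without overlap (-0.49, adjusted p = 0.34).

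In Nkx2.5 hearts at E11.5, 0 of 31 members passed the test (without a replicate block), where 0.38% of all genes fell and 0.11% rose. At an unadjusted p under 0.05, 5 members were lower (5.11% of all genes) and 1 higher (3.39%). The knockouts were all below the controls for 6 members (8.57% of all genes), namely Acsl4, Cpt2, Acacb, Hadhb, Eci2 and Etfdh, and all above for 1, Angptl4 (4.14%). The median was -0.14 against -0.02 over all genes, 21 members were below 0 (53.9% of all genes) and 11 below -0.3 (9.12% of all genes). Of simulated 1.5-fold changes, 24% were recovered in this comparison, which limits what a missing call says. Etfdh read 1443, 998 and 1430 on the control arrays against 679, 635 and 828 on the knockout arrays. All 3 knockouts were below all 3 controls, and the difference was -0.84 (SE 0.19, adjusted p = 0.065). The other Etfdh probes, at 48.9 to 82.8 in controls here, gave 0.14, -0.18 and -0.11, and the mean of its probes gave -0.25 (adjusted p = 0.45). Etfdh was called without control replicate 2 (-1.02, adjusted p = 0.04) and without knockout replicate 3 (-0.95, adjusted p = 0.012). Acacb, the acetyl-CoA carboxylase of the mitochondrial surface, read 856, 724 and 794 on the control arrays against 658, 551 and 282 on the knockout arrays, also without overlap (-0.76, adjusted p = 0.31). With the replicate number as a block, which pairs these arrays (Xist differs within pair 2), both were called (Etfdh with adjusted p = 0.0089), giving 2 lower members. Acadvl was at 0.36 here (adjusted p = 0.58) and overlapped between genotypes.

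In αMHC hearts at E11.5, 0 of 31 members were called (0.0084% of all genes fell and 0% rose), and in αMHC hearts at P0, 0 of 34 (0% in either direction). At an unadjusted p under 0.05, 0 members were lower or higher in either comparison, where 2.27% and 2.12% of all genes were at E11.5 and 2.03% and 2.18% at P0. The E11.5 knockouts were all below the controls for 6 members (17.8% of all genes) and all above for 2 (14.7%), with 21 below 0 (52.4%) and 0 below -0.3 (1.49%). At P0 they were all below for 1 member (15.7%) and all above for 4 (14.6%), with 16 below 0 (50.9%) and 0 below -0.3 (5.55%). The medians were -0.06 and 0.01. Etfdh at E11.5 read 2442 and 2196 on the control arrays against 1933 and 2066 on the knockout arrays, a small separation of -0.21 (adjusted p = 1). At P0 it was at 8009 and 6772 against 6676 and 7488 and overlapped, with a difference of -0.06. Acaa2 overlapped at both ages, and its P0 arrays lay between 13014 and 16174. One member varied far more between P0 controls than between genotypes: Angptl4 read 3841 and 347 on the control arrays against 1153 and 1108 on the knockout arrays.

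Differences between ages and drivers in the effect of the knockout were tested directly. Etfdh fell more at 6 weeks than at P0 in the αMHC hearts, by -1.69 (SE 0.35, 95% interval -2.42 to -0.96, adjusted p = 0.047), and more than at E11.5, by -1.53 (SE 0.31, 95% interval -2.19 to -0.88, adjusted p = 0.025). In these contrasts 1 of 34 and 1 of 31 members passed, where 0.155% and 0.438% of all genes were more negative. The first of these calls was lost without any of 7 of the 8 arrays concerned (adjusted p from 0.058 to 0.59), and the second without either 6-week control, 6-week knockout replicate 1, or replicate 2 of either E11.5 group (adjusted p from 0.07 to 0.46). For Acaa2 the same contrasts gave -1.65 (adjusted p = 0.21) and -1.70 (adjusted p = 0.07). In the other 3 contrasts (P0 against E11.5, the Nkx2.5 ages against each other, and the drivers at E11.5) 0 members passed, where 0% of all genes did in the first, 0.00901% in each direction in the second, and 0.0351% (more negative) and 0.0439% (more positive) in the third. For Etfdh the drivers at E11.5 gave a difference of -0.63 (95% interval -1.14 to -0.12, adjusted p = 0.99), which did not pass, and the αMHC arm of it has sex and genotype together.

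Between ages the levels of these genes in controls spanned a wide range. Arrays of different ages appear to have been normalized apart, so ages were compared without a test after quantile normalization over all arrays, and a gene was counted as apart when its group means differed over 2-fold without overlap of arrays. From E9.5 to E11.5 (Nkx2.5 controls) 5 of 31 members were higher (3.61% of all genes) and 0 lower (2.93%), with a median of 0.67. From E11.5 to P0 (αMHC controls) 17 of 32 were higher (7.41%) and 0 lower (9.12%), with a median of 1.08. From P0 to 6 weeks 14 of 34 were higher (7.9%) and 2 lower (9.85%), with a median of 0.90. Over the whole span from E11.5 to 6 weeks 28 of 34 were higher (14.2%) and 2 lower (18.6%), with a median of 1.91. For comparison at 1 age, the E11.5 controls of the 2 drivers, which differ in driver, array set and Xist level, gave 0 higher (0.303%) and 1 lower (0.395%) of 31 and a median of 0.00. That 1 gene was Acadl, lower in αMHC controls by -1.45, and Acaa2 was lower there by -0.90. A second Acadl probe went the other way as deposited (mean of 198 in Nkx2.5 and 555 in αMHC controls). This comparison of drivers depended on the scaling. As deposited 12 of its 31 members took the other direction, and with one common median 11 did. The members' median was then higher in αMHC controls under both scalings. From E9.5 to E11.5, 8 and 5 of 31 members took the other direction under the same scalings. Left as deposited, the median of all genes itself shifted by -0.34, 0.43 and -0.70 over the first 3 steps, and relative to it the members' medians were 0.49, 1.08 and 0.86.

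**Figure D3:**
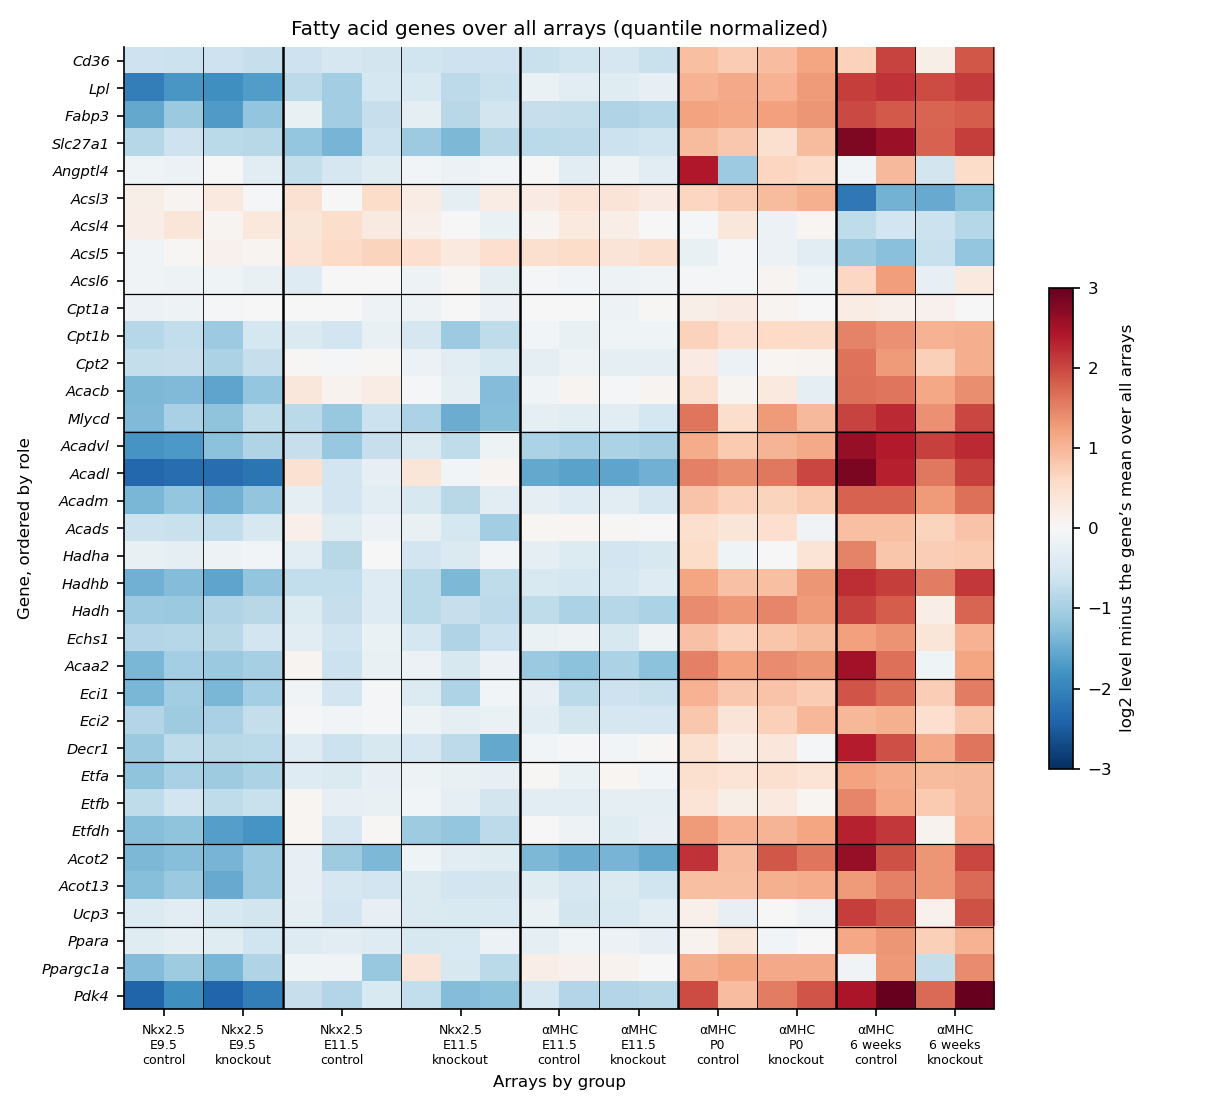
Level of the 35 measured members (rows, ordered by role) in all 22 arrays (columns, by group), after quantile normalization, as the log2 difference from each gene's mean over all arrays. Most rows turn from blue in embryos to red at P0 and 6 weeks. Acsl3 and Acsl5 drop between P0 and 6 weeks, and Etfdh and Acaa2 are paler in the 6-week knockouts.

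The steps did not follow one course. By the brightest probes, Acadl had the widest span from E11.5 to 6 weeks (4.16), followed by Acot2 (3.68), Pdk4 (3.64), Slc27a1 (3.50), Acadvl (3.48) and Acaa2 (3.26). That ranking depends on the probe. In the deposited control means the brightest Acadl probe went from 515 to 7765, and its other probes from 555 to 2146 and from 59.8 to 208. The other Acot2 probes went from 116 to 107 and from 68.5 to 78.1. Acaa2 and Hadh differed mainly before birth (2.52 and 2.21 from E11.5 to P0, then 0.74 and 0.56, the last of which is below 0 in the values as deposited). Decr1 and Cpt2 differed mainly after birth (0.40 and 0.27, then 1.80 and 1.41), and this timing depends on the scaling. As deposited, the control means at E11.5, P0 and 6 weeks were 676, 1172 and 2361 for Decr1. For Cpt2 they were 4548, 7570 and 12273. Ucp3 and Ppara lay below the median of all probes in the embryonic hearts and were higher at 6 weeks than at P0 by 2.03 and 1.03. The synthetases Acsl3 and Acsl5 were lower at 6 weeks than at P0, by -2.49 and -1.05, whereas Acsl6 was higher by 0.99. As deposited, 7 of the 34 members took the other direction from P0 to 6 weeks (Cd36, Acads, Hadh, Echs1, Eci2, Acot2 and Acot13), and with all arrays set to one median 0 did.

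The αMHC knockouts reached P0 with 19 of 32 members higher than at E11.5 (8.03%) and 0 lower (9.87%). From P0 to 6 weeks 5 of 34 were higher in knockouts (7.38%) and 1 lower (8.61%), with a median of 0.50 (-0.25 as deposited, where all genes were at -0.68) beside the 0.90 of controls. Etfdh was at 1.05 in controls and at -0.54 in knockouts, where arrays of the 2 ages overlapped, and Acaa2 was at 0.74 and -0.85. Set against the P0 controls, the 6-week knockouts had Etfdh at -0.60 and Acaa2 at -0.83, both with no overlap of arrays and below 0 under every scaling tried. Lpl (1.04 and 0.87) and Acsl3 (-2.49 and -2.41) differed between the ages by alike amounts in controls and knockouts. These values use the same arrays as the genotype comparisons and are no further test of them.

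**Figure D4:**
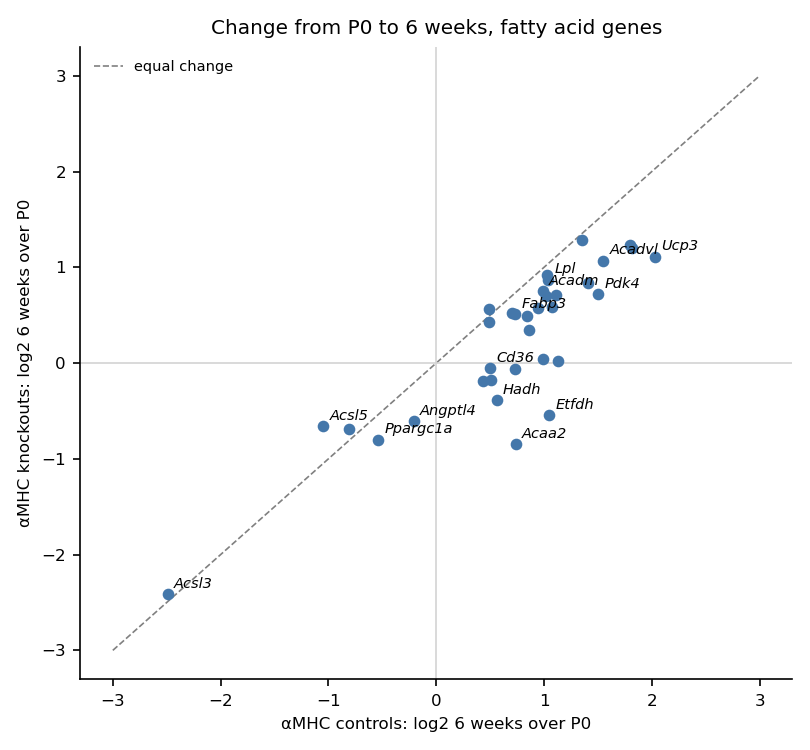
Change from P0 to 6 weeks (log2, after quantile normalization) of the 34 members above the filter, in αMHC controls (horizontal axis) and αMHC knockouts (vertical axis), with a dashed line for equal change. Most points lie below the line, Etfdh and Acaa2 farthest below it, and Acsl3 lies on it at the lower left.

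Neighbouring genes of lipid metabolism were looked at in the same fits. Of 95 genes in 7 neighbouring lists (carnitine supply and acyl transfer, peroxisomal oxidation, triglyceride storage and lipolysis, other mitochondrial acyl-CoA enzymes, ketone body use, other uptake and binding proteins, nuclear regulators), 87 had a probe and 78 were tested at 6 weeks. None passed the test in any of the 5 comparisons, and at 6 weeks 4 were lower and 1 higher at an unadjusted p under 0.05. Over all genes 5.06% were lower, 5.52% higher and 47% below 0. The median of the neighbouring genes at 6 weeks was -0.13, with 51 of 78 below 0. Acot1, a cytosolic acyl-CoA thioesterase, had the largest difference (1653 ± 183 to 711 ± 604, SD, n = 2 each, -1.54, SE 0.52, adjusted p = 0.18). It is a close copy of Acot2, and whether the probes tell the copies apart was not tested. Chosen after their values were seen, Dgat2, which makes triglyceride, was at -1.19 (adjusted p = 0.055), and Slc25a20, the carrier that exchanges acylcarnitine for carnitine across the inner membrane, at -0.62 (adjusted p = 0.22).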

How the data were processed

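The authors used cubic spline normalization (GenePattern) or quantile normalization, and the deposited table was taken as the former because array distributions are alike only within a comparison. The deposited values are linear intensity values, and log2 of them was taken without further scaling. The table of raw values stayed out, since none of its 22 columns carries the name of a sample. Of 45281 probes, 34885 name 1 gene, 18 several and 10378 none. A gene was tested if the mean level of its brightest probe in a comparison exceeded that of the median probe.

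All genes were fitted with 10 group means in one model (12 residual degrees of freedom) in R 4.3.3 with limma 3.58.1, with array weights per comparison (statmod 1.5.0, from 0.533 to 1.9), an intensity trend and Benjamini-Hochberg adjustment at 0.05. Differences of effects were contrasts of that model. Tables and figures were made in Python 3.11.15 with pandas 2.3.3 and matplotlib 3.10.9. The replicate SD (log2) was 0.15 to 0.30, and the number of arrays limits the precision. The model was tested on simulated data for 9896 genes and recovered 32% of 2-fold and 6% of 1.5-fold changes at 6 weeks.

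Same-numbered Nkx2.5 arrays at E11.5 deviated together (correlations of 0.44, 0.61 and 0.52). The main fit used no replicate block, and the number paired arrays only in an alternative fit. Per-array values are given for members past the threshold and for the brightest and the most changed member of each role, and others that illustrate a pattern were added after their values were seen. The members and lists were chosen with earlier results of these data known. Alternatives were other scalings, array weights, filters, probe summaries, a replicate block, each comparison alone, the methods' t-test and each array left out.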

Additional observations from a re-analysis of the deposited data

Results flagged for a closer look

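The effect of the knockout on Etfdh differed between ages of the αMHC hearts by a test of the difference itself. It was more negative at 6 weeks than at P0 by -1.69 (adjusted p = 0.047) and than at E11.5 by -1.53 (adjusted p = 0.025, both from the limma contrasts over all genes). The E11.5 comparison has sex and genotype together, and the 6-week knockouts differ in Thap11 (20.0% and 53.4% of the control mean), and the part of either in these differences was not tested. With 2 or 3 arrays a group, no formal outlier test was run.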

How the results depend on the processing

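At E9.5 the 1 called member became 0 with equal array weights, with the comparison fitted alone, by the methods' t-test after Benjamini-Hochberg and without the filter on dim probes, and 2 by the unadjusted t-test. Leaving out arrays gave 0 to 1, and medians of -0.08 to 0.17. In Nkx2.5 hearts at E11.5 the count of 0 became 1 (Etfdh) after quantile normalization, 2 with the replicate block, 5 by the unadjusted t-test and 0 to 1 with arrays left out. The unadjusted t-test gave 2 members in αMHC hearts at E11.5 and 1 at P0, with leave-one-out medians of -0.09 to 0.00 and -0.13 to 0.07. At 6 weeks the 2 called members became 5 with equal weights (Slc27a1, Acsl6, Cpt2, Acaa2, Etfdh), 4 with the replicate block, 0 fitted alone and 0 by the t-test after adjustment. Arrays left out gave 0 (without control replicate 1) to 7 (without knockout replicate 2), and medians of -0.70 to -0.21. The difference between 6 weeks and P0 (1 member) gave 0 fitted alone, 0 after quantile normalization, 2 with the mean of the probes, and 0 to 6 with arrays left out. That between 6 weeks and E11.5 (1 member) gave 0 with equal weights, 0 fitted alone, 2 with the mean of the probes, 2 with the block, and 0 to 4 with arrays left out. The sample titles number the replicates and do not say that same numbers are pairs. Outside Nkx2.5 E11.5 the correlations of same-numbered arrays (2 pairs each) were 0.02 to 0.36, and at 6 weeks such arrays also share a high or low Xist level. Apart from the counts given, the block changed no other count of called members.

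Between ages, with values as deposited, set to one common median, and with the mean of the probes, in that order, the members' medians were 0.16, 0.20 and 0.54 (E9.5 to E11.5), 1.50, 0.85 and 0.80 (E11.5 to P0), and 0.16, 0.64 and 0.74 (P0 to 6 weeks). The E11.5 controls of the drivers gave 0.73 as deposited and 0.48 with a common median, and the knockouts from P0 to 6 weeks -0.25 and 0.23. Counts past 2-fold were 3, 3 and 3 (E9.5 to E11.5), 5 as deposited and 10 with a common median (P0 to 6 weeks), and 7, 2 and 0 (between drivers). With arrays left out the counts were 4 to 8 (E9.5 to E11.5), 1 to 2 between drivers and 5 to 10 in knockouts. The medians were then 0.95 to 1.29 (E11.5 to P0), 0.72 to 0.99 (P0 to 6 weeks), -0.12 to 0.10 (drivers) and 0.23 to 0.61 (knockouts). The cause of these differences was not tested. Of 188 alternative counts 134 kept within 1.5 times, and of 89 medians 22 moved by at least the SD between arrays. Of 279 values of single genes 234 kept their side of the threshold, 31 lost a call of the main fit and 14 gained one. Most of these values belong to genes not called in the main fit, for which keeping their side meant staying uncalled. Simulated 2-fold changes were recovered least often at 6 weeks (32%, against 74% to 96% in the other comparisons), which limits what a missing call says there.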
